A study of Mus musculus with 32 samples.

Results

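Interferon-stimulated genes are transcribed when a cell senses type I, II or III interferon, and the 49 such genes examined here were picked by name from the 33280 genes of each of the 2 deposited count tables. They comprised 4 IFIT genes, ISG15 and its protease, 5 OAS genes, 18 other antiviral effectors, 3 sensors of foreign nucleic acid, 5 signalling and transcription factors, 5 guanylate-binding proteins, 5 immunity-related GTPases and 2 genes of MHC class I presentation. All 49 passed the filter on low counts in both tables, so none was lost before testing. The libraries came from 8 wild-type mice. The 4 CTL mice (A2, A3, A4 and B1) received vehicle and the 4 BLZ945 mice (C2, C3, C4 and D1) received BLZ945, an inhibitor of the macrophage survival receptor CSF1R, at 200 mg/kg for 7 days. Brain macrophages die during such treatment and return after it, and 8 weeks later every mouse of both groups had a stroke, made by injecting thrombin into the middle cerebral artery. Both hemispheres were collected 1 day after the stroke, and each gave 1 library of brain tissue and 1 library of sorted subdural CNS-associated macrophages (sdCAMs), the macrophages of the perivascular space and leptomeninges, gated as Ly6C- Ly6G- CD11c- CD45+ CD11b+ CD206+ after removal of the choroid plexus. Because every mouse analysed here had a stroke, the contralateral hemisphere of a stroke brain is the only reference for the stroke side, and the animals' ages are not in the labels.

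Interferons bind paired receptors at the cell surface, receptor-bound kinases of the JAK family phosphorylate STAT proteins, and the factor ISGF3, which contains STAT2 and IRF9, enters the nucleus. ISGF3 binds a promoter element called ISRE, whose core is a pair of GAAA blocks, while the response to interferon-gamma also uses a palindromic element called GAS. The induced proteins block viral entry, bind or degrade viral RNA, attack the vacuoles of intracellular microbes and load peptides onto MHC class I, and several of them, among them Usp18 and Socs1, limit the response. In the brain these genes are used by microglia, border macrophages, endothelial cells and astrocytes, and are studied in infection, ageing and injury.

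The 16 tissue libraries held between 9288717 and 12781505 counts, so that 3 counts, taken as the detection floor, equal 0.2347 to 0.323 CPM (the counts of a gene as a share of its library, on 1 scale for all libraries). The 14 sdCAM libraries used held 7397393 to 11081409 counts. Ipsilateral sdCAMs of A3 and C2, whose RNA the labels call degraded, held 54055 and 55155 counts in all, with 33 and 83 counts over the 49 members, and were left out. For the tissue of A3 the sample label and the column name name opposite hemispheres, and the label was followed, with the exchange given as an alternative. Ddx3y, a Y-linked gene, marked 3 of the 4 CTL mice (A2, A3 and A4) and 1 of the 4 BLZ945 mice (D1), so treatment and sex largely overlap. The contralateral sdCAM library of C2 held both Xist, at 93.6 CPM, and Ddx3y, at 10.8 CPM, although the C2 tissue libraries held 0 Ddx3y counts. The paper's methods mention pooling of sorted cells from BLZ945 mice, which a figure legend gives for a reporter-mouse experiment. Whether it holds for these libraries is not stated, and each replicate was treated as 1 mouse. Reads shared by near-identical genes (Ifit3 with Ifit3b, and members of the Gbp, Oas and Irgm families) could have been divided between them, which makes the single values of these genes uncertain. All CPM values below are normalised for library composition, their error is the SD over mice, and a change was called at an adjusted p under 0.05 together with a log2 fold change beyond 0.59.

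Promoter sequences that hold the ISRE core are shown first, because ISGF3 binds this element, although not every member has it. Promoter windows running from 250 bases before to 50 bases after the transcription start were taken from RefSeq (GRCm38.p6) by gene symbol and matched 35 of the 49 members, giving 42 promoters of 300 bases each. The ISRE core, GAAA followed by any 2 bases and a further GAAA, read on either strand, occurred in 21 of these 42 promoters (50%), which belong to 20 of the 35 members matched, and in 1131 of all 32851 promoters (3.44%). The GAS letters TTCNNNGAA, a palindromic pattern, occurred in 11 of the 42 (26.2%) and in 8.3% of all promoters, and 7 of the 42 held both. The following windows belong to members whose tissue values are described below, are written 5′ to 3′ on the strand of the gene, and carry every base of an ISRE core in capitals (TTTC blocks are the core read on the other strand).
Gbp2 (chr3:142620582-142620635, plus strand): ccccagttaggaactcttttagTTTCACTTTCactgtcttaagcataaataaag
Gbp3 (chr3:142559977-142560036, plus strand): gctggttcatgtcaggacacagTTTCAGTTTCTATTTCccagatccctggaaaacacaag
Gbp7 (chr3:142530261-142530314, plus strand): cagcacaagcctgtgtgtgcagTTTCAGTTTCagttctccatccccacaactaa
Irgm1 (chr11:48871421-48871472, minus strand): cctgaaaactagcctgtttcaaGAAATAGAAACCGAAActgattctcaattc
Ifit1 (chr19:34640763-34640835, plus strand): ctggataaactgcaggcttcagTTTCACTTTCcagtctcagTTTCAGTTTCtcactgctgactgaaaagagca
Ifit3 (chr19:34583351-34583438, plus strand): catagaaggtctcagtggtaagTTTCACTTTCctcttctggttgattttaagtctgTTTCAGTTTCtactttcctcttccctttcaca
Isg15 (chr4:156200853-156200918, minus strand): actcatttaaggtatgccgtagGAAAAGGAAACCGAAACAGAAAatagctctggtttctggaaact
Bst2 (chr8:71537565-71537624, minus strand): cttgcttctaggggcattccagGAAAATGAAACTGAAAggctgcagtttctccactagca
Trim30a (chr7:104465198-104465251, minus strand): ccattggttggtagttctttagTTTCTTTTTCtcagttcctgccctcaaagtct

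Single cores stand in Gbp2, Gbp7 and Trim30a, paired or overlapping cores in Gbp3, Irgm1, Ifit1, Ifit3 and Bst2, and a run of overlapping cores in Isg15. First bases of the cores lay 59 bases before the start in Gbp2, 45 and 39 in Gbp3, 53 in Gbp7, 30 and 24 in Irgm1, and 36 in Trim30a. They lay farther upstream in Ifit1 (104 and 85 bases), Ifit3 (156 and 122) and Bst2 (130 and 124), and at 78, 72 and 66 bases in Isg15. Distances are from the RefSeq start. For 30 of the 42 windows the first 30 bases after that start were found in a reference transcript of the gene, but not for Ifit3, Bst2 and Gbp7, whose distances are therefore less certain. The letters were absent from the windows of Oasl2, Irf7, Irf9, Tap1, Lgals3bp and Cmpk2. Of the members described next, those with the core in a promoter window had a median tissue log2 fold change of 0.93 (20 members, average of both treatments) and those whose windows lacked it 0.60 (15 members). In CTL alone the order was the opposite, 0.56 with the core and 0.58 without, and in BLZ945 the medians were 1.18 and 0.84. In the average 10 of the 20 members with the core, 6 of the 15 without it and 7 of the 14 with no promoter entry were called. Over all genes tested 1.93% were called higher in that comparison. This is a description for which no test was made.

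In brain tissue the members stood higher on the stroke side. In CTL mice 4 of 49 members rose: the guanylate-binding proteins Gbp2 and Gbp3, the membrane protein Ifitm3, which restricts viral entry, and the GTPase Irgm1. In BLZ945 mice 13 of 49 rose, namely Gbp2, Gbp3, Gbp7, Ifitm3, Bst2, Ifit1, Ifit3, Usp18, Oasl2, Trim30a, Irf7, Irf9 and Tap1. Averaged over both treatments with equal weight, 23 of 49 rose, and no member fell in any of the 3 comparisons. Over all 18968 genes tested, the share called higher was 0.443% in CTL, 1.12% in BLZ945 and 1.93% in the average, and the share called lower 0%, 0.0369% and 0.0738%. The median log2 fold change of the members was 0.59 in CTL, 0.89 in BLZ945 and 0.83 in the average, against medians of -0.00907, -0.0032 and -0.00914 over all genes. The fitted change was positive for 47 members in CTL, for 47 in BLZ945 and for all 49 in the average. Because the members were chosen with earlier results of these data known, these shares beside all genes are a description.

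The number of calls depended on single mice and on 1 label. Fitted with the mouse as a block, since both hemispheres came from the same animal, the calls were 5 in CTL (Oasl2 added, adjusted p = 0.0477), 22 in BLZ945 and 25 in the average, against 0.938%, 1.99% and 2.29% of all genes (0.0369%, 0.19% and 0.132% called lower). The 9 members added in BLZ945 were Oasl1, Rsad2, Zbp1, Rtp4, Parp14, Ifih1, Igtp, Irgm1 and Iigp1, the 2 added in the average were Samd9l and Rtp4, and no tissue call was lost. No CTL member was called without A3, without A4 or without B1. Calls in BLZ945 fell to 4 without C4, 5 without C2, 6 without C3, and 7 without A3, B1 or D1, and calls in the average to 12 without A4, 13 without B1 and 14 without C4. Over these fits the share of all genes called higher was 0.127% to 0.458%, 0.41% to 1.12% and 1.26% to 1.83%. Gbp2, Gbp3 and Ifitm3 were called in BLZ945 whichever mouse was left out. With sex as a covariate, added after seeing the data, 9 members were called in BLZ945 (195 over all genes). Ifit1, Ifit3, Trim30a, Irf7 and Tap1 were then not called, and Irgm1 was. If the A3 tissue libraries were swapped to follow the column names, 0, 1 (Gbp3) and 0 members were called in CTL, BLZ945 and the average, as were 0%, 0.0316% and 0.00527% of all genes, while the member medians stayed at 0.389, 0.89 and 0.738.

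Taken singly, each mouse had a positive member median, that of A3 only with the hemispheres as its label gives them. The median log2 ratio of ipsilateral to contralateral CPM over the 49 members was 0.25 in A2, 0.29 in A3, 0.77 in A4 and 0.60 in B1. The same ratio was 1.10 in C2, 0.83 in C3, 0.91 in C4 and 0.69 in D1, and between 35 members (A2) and 47 members (B1) were higher on the stroke side, when 45.7% to 49.4% of all genes were. For 18 members every CTL ipsilateral library stood above every CTL contralateral one, which held for 2.41% of all genes, and for 22 members in BLZ945, where it held for 4.2%. No member had the opposite order, which 1.51% and 2.2% of all genes had. With the A3 hemispheres exchanged the A3 median was -0.29, and 2 members, Oas2 and Nlrc5 (0.786% of all genes), had separate CTL hemispheres in place of 18, so that the CTL separations given below rest on the A3 label as well.

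**Figure D1:**
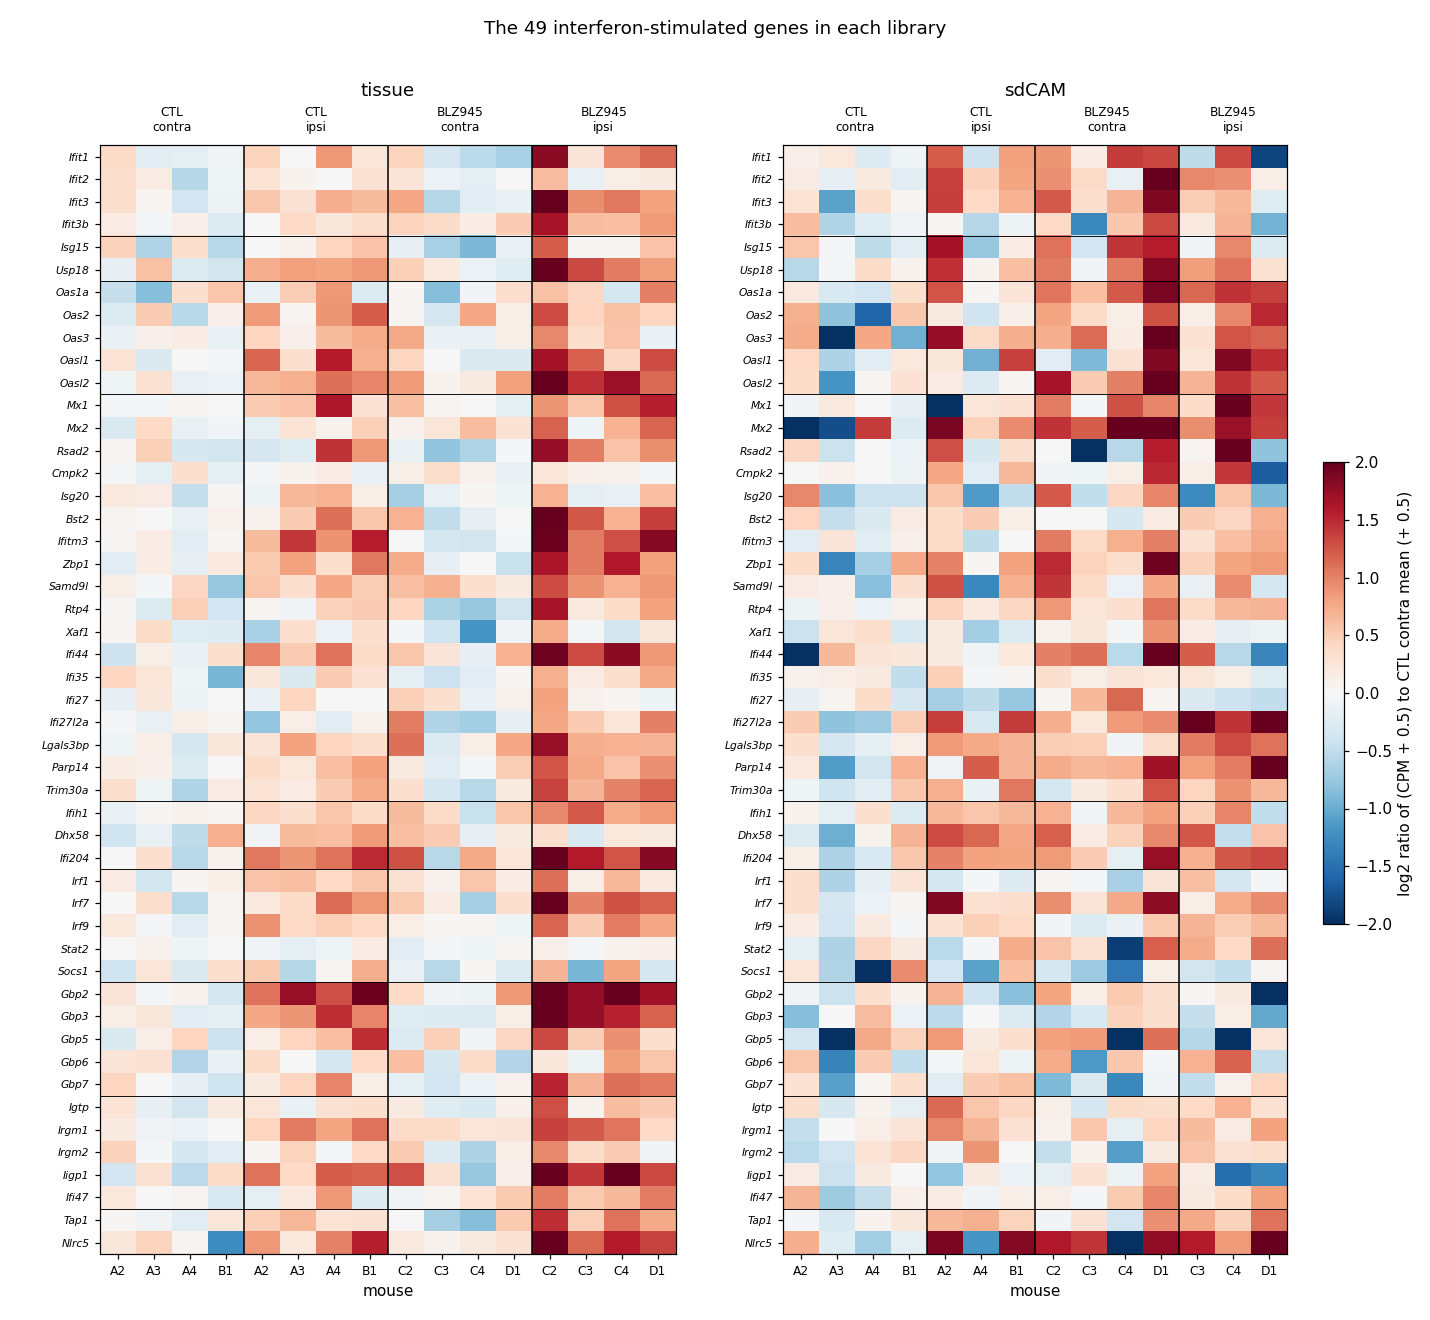
Log2 ratio of each member's CPM (plus 0.5) to its mean over the contralateral CTL libraries (plus 0.5), for each library (columns, by mouse) and member (rows, ordered by role, with lines between role groups), in tissue (left) and sdCAMs (right). Colour runs from -2 (blue) to 2 (red). In tissue the ipsilateral columns are red for most members and that of C2 the darkest, while in sdCAMs the columns differ more between mice than between hemispheres.

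**Figure D2:**
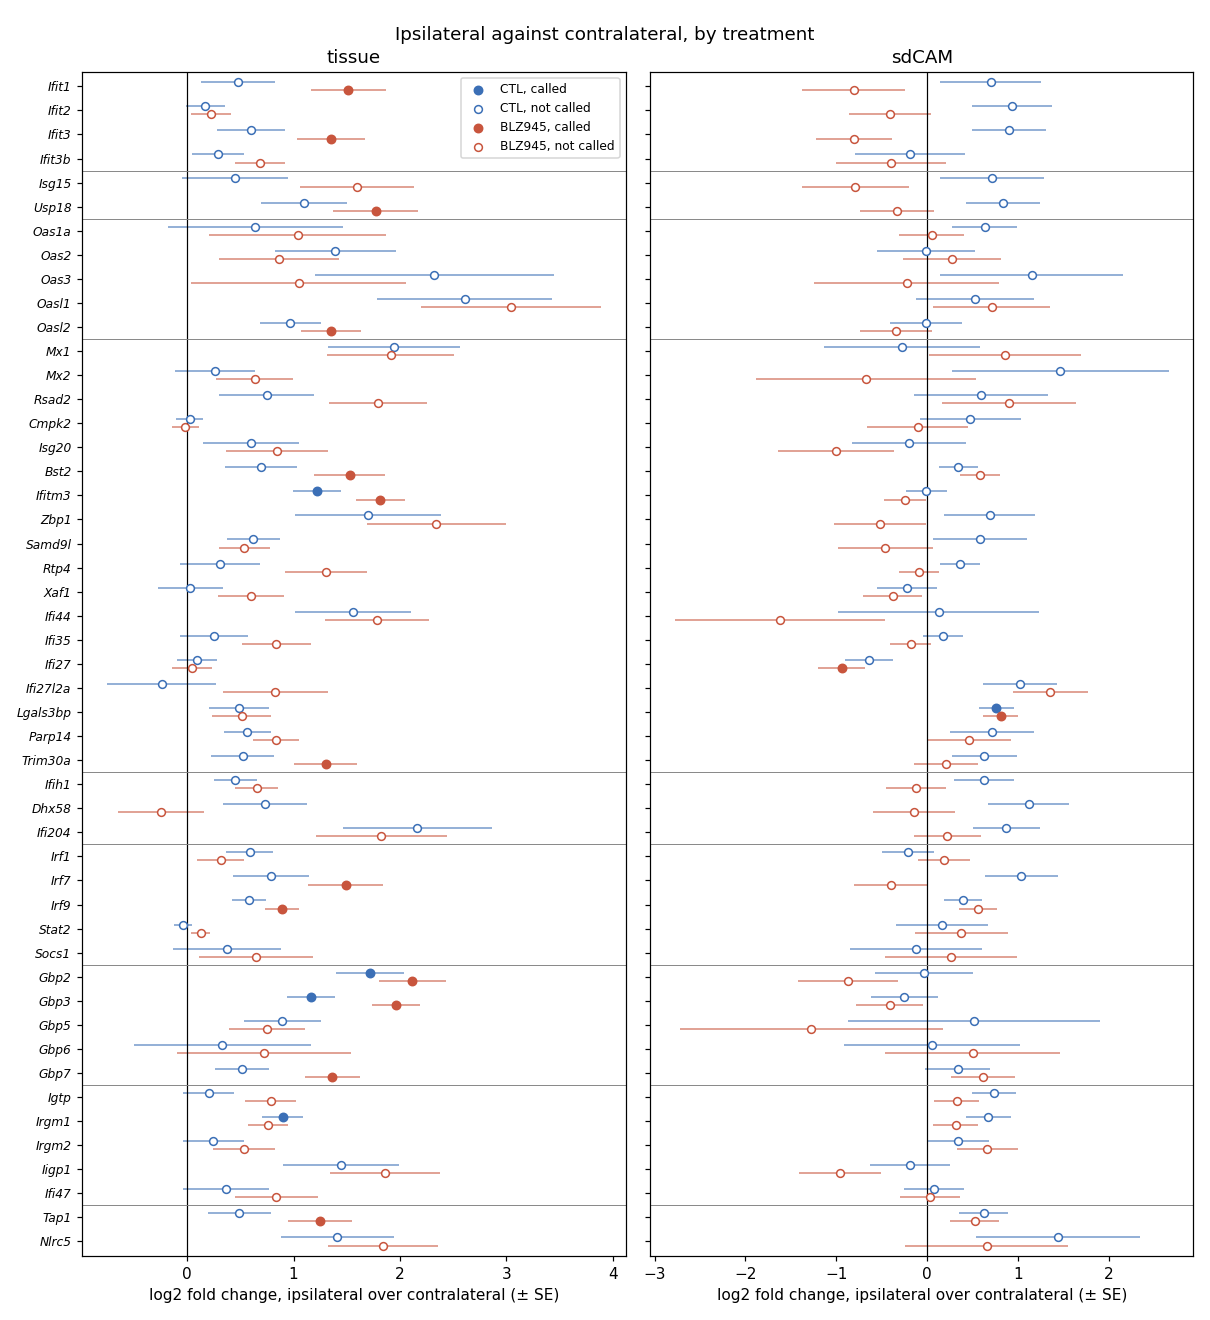
Fitted log2 fold change of ipsilateral over contralateral for each of the 49 members in CTL (blue) and BLZ945 mice (red), with its SE as a line, in tissue (left) and sdCAMs (right). Filled points are called. In tissue 47 of 49 points of each treatment lie right of 0, in sdCAMs 36 in CTL and 23 in BLZ945.

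Guanylate-binding proteins are large GTPases that coat and break the vacuoles of intracellular microbes. Of these, 3 of 5 members were called in BLZ945 and 2 of 5 in CTL (1.12% and 0.443% of all genes). Gbp2 CPM was 3.34, 2.63, 2.91 and 2.03 in contralateral tissue of A2, A3, A4 and B1, the order used for CTL mice from here on, and 6.37, 10.3, 7.39 and 12.04 in ipsilateral tissue. In C2, C3, C4 and D1, the order used for BLZ945 mice, Gbp2 was 3.73, 2.62, 2.51 and 5.4 contralaterally and 22.02, 10.4, 19.96 and 9.94 ipsilaterally. The hemispheres did not overlap in either treatment. Its log2 fold change was 1.72 ± 0.32 (adjusted p = 0.0183) in CTL and 2.12 ± 0.31 (adjusted p = 0.001603) in BLZ945 (edgeR quasi-likelihood test with Benjamini-Hochberg adjustment, as for every adjusted p here unless another tool is named).

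Gbp3 followed the same course. Its CPM was 3.42, 3.74, 2.598 and 2.67 contralaterally and 5.66, 6.17, 9.59 and 6.59 ipsilaterally in CTL. In BLZ945 it was 2.56, 2.51, 2.51 and 3.44 contralaterally and 14.1, 11.7, 9.93 and 7.63 ipsilaterally, so that the hemispheres were again separate. Log2 fold changes were 1.17 ± 0.23 (adjusted p = 0.0269) in CTL (lost without A2, A3, A4 or B1) and 1.96 ± 0.23 (adjusted p = 0.000196) in BLZ945. Gbp7 passed the test in BLZ945, going from 3.19 ± 0.495 to 8.27 ± 2.12 CPM (log2 fold change 1.36 ± 0.26, adjusted p = 0.0105, lost without C2 or C4), while its CTL value was 0.52 ± 0.26 (adjusted p = 0.833). The difference between the treatments in this gene was 0.85 ± 0.36 on the log2 scale with an unadjusted p = 0.0329 and an adjusted p = 0.9999. Gbp5 and Gbp6 were called in neither treatment, with average log2 fold changes of 0.82 ± 0.25 and 0.53 ± 0.58.

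Among the immunity-related GTPases, which act on the same vacuoles, Irgm1 was the one called in CTL. Irgm1 CPM was 9.299, 7.73, 7.48 and 8.11 contralaterally and 11.2, 17.2, 14.5 and 17.9 ipsilaterally in CTL mice, where every ipsilateral value was the higher (log2 fold change 0.90 ± 0.19, adjusted p = 0.0443, and not called without A3, A4, B1, C3 or C4). In BLZ945 it was 10.8, 10.8, 9.76 and 9.87 contralaterally and 21.7, 19.7, 17.7 and 10.8 ipsilaterally (0.76 ± 0.19, adjusted p = 0.0569, called with the mouse as a block at adjusted p = 0.0133). D1 had the least change of the BLZ945 mice. Iigp1 was called in the average, at 1.65 ± 0.38 (adjusted p = 0.0207), and at the low level of 0.664 ± 0.361 CPM contralaterally in CTL. Igtp, Irgm2 and Ifi47 were not called, with average log2 fold changes of 0.49 ± 0.17, 0.39 ± 0.21 and 0.60 ± 0.28. With the mouse as a block Igtp was called in BLZ945 (log2 fold change 0.74, adjusted p = 0.0238).

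Ifitm3, which keeps enveloped viruses from fusing with endosomes, changed with the smallest p of all members in CTL. Its CPM was 8.66, 9.595, 7.17 and 8.66 contralaterally against 13.4, 23.7, 16.4 and 26.2 ipsilaterally in CTL. In BLZ945 the values were 8.53, 6.597, 6.505 and 8.38 and 34.7, 17.97, 21.5 and 31.7. No library of one hemisphere reached the range of the other, and the log2 fold changes were 1.22 ± 0.23 (adjusted p = 0.0183) and 1.81 ± 0.23 (adjusted p = 0.000378). Bst2, the tetherin that holds budding virus at the membrane, was called in BLZ945. Bst2 CPM there was 4.48, 1.68, 2.23 and 2.61 contralaterally and 13, 6.79, 4.49 and 7.53 ipsilaterally, C2 being the highest on both sides (log2 fold change 1.53 ± 0.33, adjusted p = 0.0271, lost without A3, B1, C3 or D1). In CTL the Bst2 means were 2.58 ± 0.213 and 4.18 ± 1.38 (0.69 ± 0.34, adjusted p = 0.817). Trim30a, a ubiquitin ligase of the TRIM family, rose in BLZ945 from 1.92 ± 0.692 to 4.75 ± 1.01 CPM (1.30 ± 0.30, adjusted p = 0.0374), and this call held only without A2 or A4 among the leave-one-out fits.

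Of the other antiviral effectors, Mx1, Rsad2, Zbp1, Ifi44 and Parp14 were called in the average of both treatments. Mx1, a GTPase, stood at 0.1802 ± 0.0211 CPM contralaterally and 0.725 ± 0.578 ipsilaterally in CTL, and at 0.255 ± 0.192 and 0.979 ± 0.442 in BLZ945, so its contralateral values lay near or below the detection floor. Rsad2, or viperin, which makes a chain-terminating nucleotide, had an average log2 fold change of 1.27 ± 0.32 (adjusted p = 0.0366). Parp14, an ADP-ribosyltransferase, had 0.70 ± 0.15 (adjusted p = 0.0165) at a level of 3.62 ± 0.508 CPM contralaterally in CTL. For Zbp1, a sensor of left-handed nucleic acid, and Ifi44 the averages were 2.02 ± 0.47 and 1.67 ± 0.37. Their contralateral CTL means, 0.179 and 0.272 CPM, lay near or below the detection floor, so the size of these folds is undetermined. Lgals3bp, a secreted glycoprotein and the member with the highest mean tissue CPM of this role group, was not called: its CTL means were 23.2 ± 4.07 and 32.6 ± 5.86 CPM, its BLZ945 means 33.7 ± 14.2 and 48.3 ± 20.6 CPM, and its average 0.50 ± 0.20 (adjusted p = 0.236).

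In the IFIT family, whose proteins bind viral RNA that lacks host methylation, Ifit1 and Ifit3 were called in BLZ945. Ifit1 CPM was 4.16, 2.199, 1.86 and 1.68 contralaterally and 11.5, 3.595, 6.06 and 7.13 ipsilaterally in BLZ945, with C2 highest in both hemispheres and C3 rising least (1.52 ± 0.35, adjusted p = 0.0396, lost without A2, A3, B1, C2, C4 or D1). In CTL the Ifit1 values were 3.97, 2.46, 2.49 and 2.77 and 4.17, 2.91, 5.72 and 3.54, which overlap. The Ifit1 difference between treatments was 1.04 ± 0.49 with an unadjusted p = 0.0498 and an adjusted p = 0.9999. Ifit3 means went from 4.96 ± 2.44 to 12.7 ± 6.16 CPM in BLZ945 (1.35 ± 0.32, adjusted p = 0.0444, kept only without C2 among the leave-one-out fits). Ifit2, the most abundant of the family in tissue, had an average of 0.20 ± 0.13 (adjusted p = 0.579), with means between 13.1 ± 3.44 CPM contralaterally in CTL and 15.3 ± 3.59 CPM ipsilaterally in BLZ945.

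Usp18, which removes ISG15 from proteins and damps the type I receptor, rose while Isg15 itself did not pass the test. Usp18 CPM in BLZ945 was 1.39, 1.05, 0.743 and 0.652 contralaterally and 5.98, 2.896, 2.299 and 1.91 ipsilaterally (1.77 ± 0.40, adjusted p = 0.0319, kept only without A3 or A4 among the leave-one-out fits). In CTL it was 0.715, 1.53, 0.624 and 0.553 and 1.73, 1.89, 1.85 and 1.98, where A3 had by far the highest contralateral value and the hemispheres still did not overlap (1.10 ± 0.40, adjusted p = 0.569). Isg15, the ubiquitin-like modifier, had means of 0.448 ± 0.234 and 1.38 ± 0.778 CPM in BLZ945 (1.60 ± 0.54, adjusted p = 0.206) and 0.781 ± 0.496 and 1.07 ± 0.295 in CTL.

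Oasl2 led the OAS family, whose classical members make the second messenger that activates RNase L. Oasl2 CPM was 2.94, 3.99, 2.81 and 2.86 contralaterally and 5.27, 5.49, 7.3 and 6.68 ipsilaterally in CTL (0.97 ± 0.29, adjusted p = 0.311). In BLZ945 mice the values were 6.08, 3.35, 3.62 and 5.96 and 20.2, 9.59, 11.4 and 7.53 (1.35 ± 0.28, adjusted p = 0.0191, lost without C2, C3 or C4). All 4 mice of each treatment had more Oasl2 on the stroke side, and the hemispheres did not overlap. Oasl1 was called in the average (2.83 ± 0.59, adjusted p = 0.0117), although its contralateral CTL mean was 0.109 ± 0.0982 CPM, below the detection floor of every library, which leaves the size of its fold undetermined. Oas1a, Oas2 and Oas3, all at contralateral CTL means under 1.1 CPM, were not called.

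Irf9 and Irf7, transcription factors of the pathway, were called in BLZ945. Irf9, the DNA-binding part of ISGF3, was 10.7, 9, 7.79 and 9.49 CPM contralaterally and 17.6, 12.3, 13.1 and 12.4 ipsilaterally in CTL (0.58 ± 0.16, adjusted p = 0.206). In BLZ945 it was 10.2, 9.53, 9.38 and 8.66 and 21.4, 13.4, 19.3 and 16.2 (0.89 ± 0.16, adjusted p = 0.00689, lost without C2, C4 or D1), and the hemispheres were separate in both treatments. Irf7, the amplifier of type I interferon transcription, went from 2.505 ± 0.9403 to 7.04 ± 3.06 CPM in BLZ945 (1.49 ± 0.35, adjusted p = 0.0433, kept only without A4). Stat2, also a part of ISGF3 and one of the more abundant members, stayed at 29.9 ± 1.49 and 29.1 ± 3.22 CPM in CTL and 28.5 ± 2.06 and 31.1 ± 1.37 in BLZ945 (average 0.04 ± 0.06, adjusted p = 0.847). The sensor Ifih1, or MDA5, which detects long double-stranded RNA, had an adjusted p = 0.04503 in the average with a log2 fold change of 0.55 ± 0.14, short of the fold required (called in BLZ945 with the mouse as a block, 0.68, adjusted p = 0.0347), whereas Ifi204, a DNA sensor, was called at 1.99 ± 0.47 (adjusted p = 0.0244). Irf1 and the feedback inhibitor Socs1 were not called, with averages of 0.45 ± 0.16 and 0.51 ± 0.37.

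Tap1, a subunit of the pump that carries peptides to MHC class I, rose in BLZ945 from 3.34 ± 1.703 to 8.02 ± 2.596 CPM (1.25 ± 0.30, adjusted p = 0.0479, kept only without D1). Nlrc5, the transactivator of MHC class I genes, was called in the average at 1.63 ± 0.37 (adjusted p = 0.0208). Cmpk2 and Ifi27, both abundant in tissue, were not called. Cmpk2, a mitochondrial nucleotide kinase next to Rsad2, had means of 25.8 ± 4.83 and 26.1 ± 2.3 CPM in CTL and 28 ± 3.996 and 27.7 ± 2.19 in BLZ945, and an average log2 fold change of 0.0035 ± 0.09. For Ifi27, a small mitochondrial protein, the average was 0.07 ± 0.13 around 22.01 ± 2.76 CPM.

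**Figure D3:**
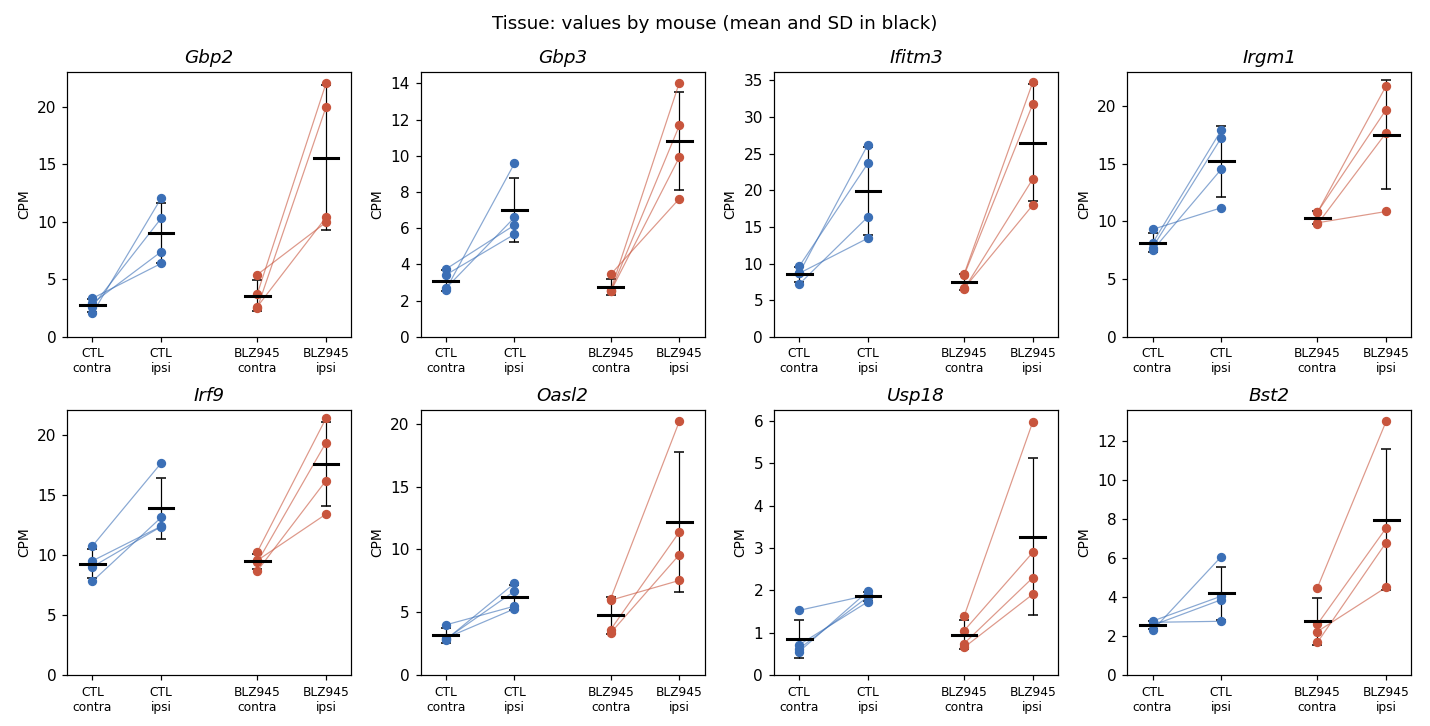
Tissue CPM (vertical axes, from 0) of 8 members in each mouse, contralateral joined to ipsilateral by a line, CTL in blue and BLZ945 in red, with the group mean and SD (n = 4) in black. In Gbp2, Gbp3, Ifitm3, Irf9 and Oasl2 all 4 lines of each treatment rise and, within a treatment, the ipsilateral values lie above all contralateral ones.

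Markers of monocytes and neutrophils, blood cells that can enter the brain, moved with the hemisphere as well, at very low levels. The summed CPM of 5 monocyte genes was 0.0922 to 0.853 contralaterally and 0.899 to 5.88 ipsilaterally, with Ly6c2 at no more than 3 counts in any library. For 7 neutrophil genes it was 0 to 1.40 contralaterally and 0.551 to 4.53 ipsilaterally, with Ly6g at no more than 2 counts. T and NK cell genes did not rise. Their summed means, contralateral then ipsilateral, were 6.694 and 6.675 CPM in CTL and 9.399 and 6.795 CPM in BLZ945. Sums of B cell and of dendritic cell genes also had lower ipsilateral means in both treatments. Over 9 sdCAM genes the sums were 21.4 to 31.4 contralaterally and 31.4 to 43.0 ipsilaterally, whereas 7 microglial genes gave 374 to 975 over both sides. The share of these cells in the member values was not tested, and in tissue a change in the number of cells cannot be told apart from a change in RNA per cell. Neuronal genes (summed 6278 to 9368 CPM) and astrocyte genes (3566 to 4695 CPM) marked the tissue libraries as brain.

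BLZ945 and CTL tissue were compared next, within each hemisphere. No member was called higher or lower on the stroke side (edgeR), where 0% of all genes were called either way and DESeq2 also called no member, but 19 members had an unadjusted p under 0.05 (4.52% of all genes). The median log2 difference, BLZ945 minus CTL, was 0.57 over the members, 45 of 49 being positive, against 0.00371 over all genes. The 3 members with the smallest p were Oasl2 (0.98 ± 0.27, adjusted p = 0.958), Ifit3b (0.82 ± 0.24, adjusted p = 0.958) and Gbp3 (0.63 ± 0.21, adjusted p = 0.958). For 6 members every BLZ945 ipsilateral library stood above every CTL ipsilateral library (1.16% of all genes): Ifit3, Ifit3b, Oasl2, Ifi27l2a, Ifih1 and Iigp1. C2 held the highest value in most members, and without it 5 members had an unadjusted p under 0.05 (4.66% of all genes) and the median was 0.259. With sex as a covariate, an alternative added after seeing the data, that number was 13 (5.07% of all genes).

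On the contralateral side edgeR and DESeq2 called no member, 1 member (Samd9l) had an unadjusted p under 0.05 (3.25% of all genes), and the median difference was 0.14, or -0.11 without C2. Samd9l, a translation repressor, was 3.497, 3.06, 4.37 and 1.66 CPM in CTL and 5.01, 5.45, 4.09 and 3.63 in BLZ945 (0.54 ± 0.25, adjusted p = 1). Irgm1 was the member whose BLZ945 contralateral libraries all stood above the CTL ones, a pattern shown by 1.1% of all genes. Whether the stroke response itself differed between treatments was asked with the interaction, for which no member was called by edgeR or DESeq2 and 0% of all genes were called by edgeR. Gbp3, Gbp7 and Ifit1 had an unadjusted p under 0.05 (2.04% of all genes), and the median interaction was 0.40, with 38 of 49 members positive. The larger number of calls in BLZ945 than in CTL is therefore not shown to be a difference between treatments.

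Sorted sdCAM libraries carried their defining genes but also those of other cells, and the mixture differed by hemisphere. Mrc1, which encodes the sorted antigen CD206, ranged from 344 to 2820 CPM and the 9 sdCAM genes together from 1614 to 10330 CPM, while the 7 microglial genes summed to 7238 to 28010 CPM. Endothelial genes summed to 855 to 2752 CPM contralaterally and 41.8 to 192 CPM ipsilaterally, and oligodendrocyte genes to 599.5 to 5354 and 90.8 to 659 CPM. A set of 20 genes expressed by all macrophages, chosen after seeing the data, summed to 19817 to 49529 CPM contralaterally and 48511 to 63650 CPM ipsilaterally. Neutrophil genes reached 1798 to 2911 CPM in contralateral libraries of C2, C4 and D1 and at most 708 CPM in every other sdCAM library. Choroid plexus genes summed to 24.6 to 8954 CPM contralaterally and 0.502 to 372 CPM ipsilaterally in CTL. In BLZ945 they summed to 1412 to 37310 CPM contralaterally, C4 being highest, and to 195 to 1502 CPM ipsilaterally. These values move with the comparisons that follow, and their part in them was not tested beyond the rescaling to the 20 macrophage genes given below.

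In sdCAMs few members differed between hemispheres. Lgals3bp rose in both treatments, though its BLZ945 value turned negative when scaled to macrophage genes, and in the average of both treatments Lgals3bp and Ifi27l2a rose and Ifi27 fell. Counted over 49 members, 1 was called higher and 0 lower in CTL, 1 higher and 1 lower in BLZ945, and 2 higher and 1 lower in the average. Over all 18297 genes tested the shares called higher and lower were 0.426% and 2.36% in CTL, 1.2% and 4.41% in BLZ945, and 3.91% and 11.1% in the average. In the average, members were thus called higher about as often as all genes, and lower less often. The members' medians were 0.52, -0.11 and 0.25 on the log2 scale (all genes -0.108, -0.148 and -0.162), with 36, 23 and 34 of 49 positive. Scaled to the 20 macrophage genes, which moved the median of all genes to -0.584, -1.11 and -0.87, the member medians were 0.05, -1.03 and -0.49, no member was called higher (0%, 0.00547% and 0.0984% of all genes), and 0, 14 and 10 were called lower (3.26%, 19.9% and 28.8% of all genes). Fitted on all 16 sdCAM libraries, the degraded ones included, no member was called.

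Lgals3bp CPM was 304, 193, 212 and 266 in contralateral sdCAMs of the 4 CTL mice and 439, 410.5 and 389 ipsilaterally in A2, A4 and B1 (0.76 ± 0.19, adjusted p = 0.0462). In BLZ945 it was 344, 340.3, 236 and 312 contralaterally and 499, 604 and 516 ipsilaterally in C3, C4 and D1 (0.81 ± 0.19, adjusted p = 0.0237). The hemispheres did not overlap in either treatment. In CTL the call was lost with the mouse as a block (adjusted p = 0.174, where 0.126% of all genes were called higher) and without any 1 mouse other than C4, and in BLZ945 without C3, C4 or D1. Scaled to the macrophage genes its BLZ945 log2 fold change turned to -0.104 and its CTL value to 0.311. Over both treatments it was 0.78 ± 0.14 (adjusted p = 0.001398).

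Ifi27l2a, a relative of Ifi27 found in interferon-treated immune cells, had the highest fold of the 3. Its CPM was 108, 43.2, 45.5 and 107 contralaterally and 199, 61.5 and 201 ipsilaterally in CTL, where A4 stayed low on both sides. In BLZ945 it was 125, 87.8, 138 and 147 and 367, 207 and 379, with every ipsilateral value above the contralateral ones. The average log2 fold change was 1.19 ± 0.29 (adjusted p = 0.0123) (not called without C3), and the BLZ945 value of 1.35 ± 0.41 (adjusted p = 0.067) was called with the mouse as a block (adjusted p = 0.0208), a fit that called 1.46% of all genes higher. Ifi27 went the other way, from 134, 156, 194 and 119.6 CPM contralaterally to 95.6, 106 and 88.7 ipsilaterally in CTL and from 156, 237, 335 and 155 to 124, 113 and 108 in BLZ945. Its contralateral values were highest in C4, C3 and A4, the libraries with the most choroid plexus genes (37310, 20090 and 8954 CPM). The part of those genes was not tested. No ipsilateral Ifi27 value reached the contralateral range of its treatment, and the log2 fold changes were -0.64 ± 0.26 (adjusted p = 0.209) in CTL, -0.94 ± 0.26 (adjusted p = 0.0488) in BLZ945 (still called when C2 was left out, but not when any other mouse was) and -0.79 ± 0.19 (adjusted p = 0.00957) in the average.

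Ifit3 and Irf7 were the members with an unadjusted p under 0.05 for the interaction in sdCAMs, 2 of 49 where 4.98% of all genes had one. Ifit3 CPM was 40.4, 15.6, 42.7 and 34.5 contralaterally and 87.9, 44.01 and 54.4 ipsilaterally in CTL, A2 being highest. In BLZ945 it was 78.7, 41.5, 53.6 and 123 contralaterally and 47.04, 52.4 and 28.01 ipsilaterally, where D1 was highest on one side and lowest on the other. Log2 fold changes were 0.90 ± 0.41 (adjusted p = 0.256) in CTL and -0.81 ± 0.42 (adjusted p = 0.267) in BLZ945. Their difference, -1.71 ± 0.58 with an unadjusted p = 0.0104, had an adjusted p = 0.992. For Irf7 the difference was smaller (-1.44 ± 0.57), with fold changes of 1.03 ± 0.40 (adjusted p = 0.188) in CTL and -0.40 ± 0.41 (adjusted p = 0.603) in BLZ945. No member was called for the interaction by edgeR or DESeq2.

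Irf9 and Igtp passed the p threshold in the average but not the fold required (0.47 ± 0.15, adjusted p = 0.0386 for Irf9 and 0.53 ± 0.17, adjusted p = 0.0481 for Igtp). The remaining members with the smallest p in a stroke comparison were Irgm1 (0.67 ± 0.25, adjusted p = 0.164), Dhx58, an RNA helicase (1.11 ± 0.45, adjusted p = 0.201), and Ifi204 (0.87 ± 0.36, adjusted p = 0.2202) in CTL, and Bst2 (0.58 ± 0.22, adjusted p = 0.132), Irgm2 (0.66 ± 0.34, adjusted p = 0.264) and Iigp1 (-0.96 ± 0.45, adjusted p = 0.223) in BLZ945, none of them called. Gbp2, Gbp3 and Ifitm3, which rose in tissue, were not called in sdCAMs. Gbp2 was 41.8 ± 9.07 and 40.8 ± 23.5 CPM in CTL and 57.99 ± 11.6 and 31.7 ± 23.3 in BLZ945 (average -0.45 ± 0.38, adjusted p = 0.465). Gbp3 had an average of -0.33 ± 0.26 (adjusted p = 0.426) and Ifitm3 of -0.13 ± 0.16 (adjusted p = 0.666), and these 3 were called lower when scaled to the macrophage genes. Whether the response differed between tissue and sdCAMs was not tested, since the tables were normalised apart.

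Taken mouse by mouse, the median log2 ratio of the members was 0.61 in A2, 0.04 in A4, 0.25 in B1, 0.21 in C3, 0.33 in C4 and -0.52 in D1. Between 12 members (D1) and 34 members (C3) were higher ipsilaterally, when 38.3% to 42% of all genes were. In CTL 11 members had every ipsilateral library above every contralateral one (5.69% of all genes) and 1 was below (10.2%), and in BLZ945 4 were above (7.43%) and 1 below (12.4%), the one below being Ifi27 in both.

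**Figure D4:**
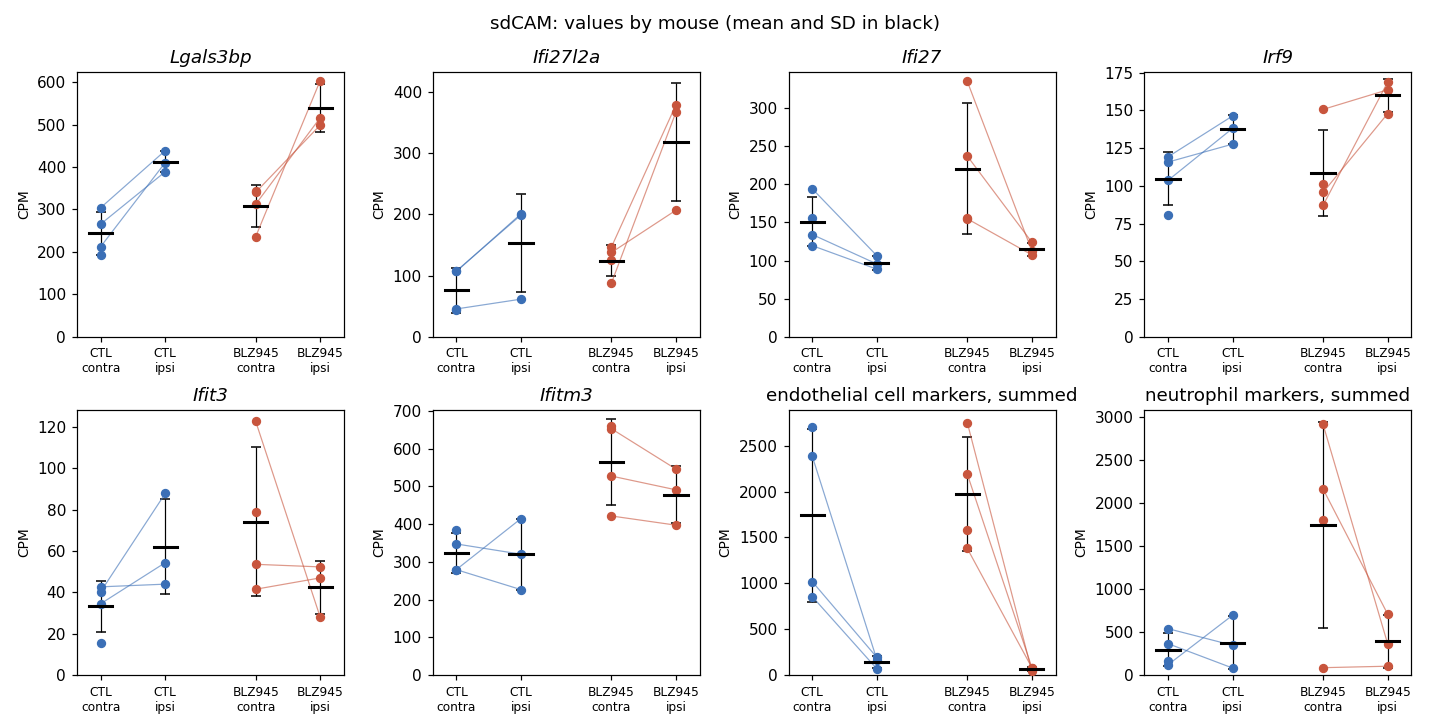
CPM in sdCAM libraries (vertical axes, from 0) of 6 members, and summed CPM of the endothelial and neutrophil genes, in each mouse, hemispheres of a mouse joined by a line, CTL in blue and BLZ945 in red, with the group mean and SD in black (n = 4 contralaterally, n = 3 ipsilaterally). On this scale Lgals3bp is higher and Ifi27 lower in all ipsilateral libraries of each treatment (Lgals3bp in BLZ945 turned to -0.104 when scaled to macrophage genes), and the endothelial genes fall from 855 to 2752 CPM to at most 192 CPM.

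Between treatments no member was called in sdCAMs of either hemisphere with edgeR, where 0% of all genes were called. Contralaterally 12 members had an unadjusted p under 0.05, the median difference, BLZ945 minus CTL, was 0.57 and 44 of 49 members were positive, while the median of all genes was 0 and 6.19% of them had such a p. Scaled to the macrophage genes, 27 members had an unadjusted p under 0.05 (11.3% of all genes), and the medians were 1.06 over the members and 0.419 over all genes. Oasl2 CPM was 53.99, 18.2, 43.3 and 51.2 in CTL and 132, 59.4, 83.9 and 198 in BLZ945 contralaterally, all BLZ945 values being the higher (1.51 ± 0.38, adjusted p = 0.759). DESeq2 called Oasl2, and no other member (0.212% of all genes), with an adjusted p = 0.0323. Oas1a (1.29 ± 0.34, adjusted p = 0.759) and Ifitm3 (0.81 ± 0.21, adjusted p = 0.759) had the next smallest p and, with Rtp4, were the other members whose BLZ945 contralateral libraries all exceeded the CTL ones (4 members in all, 1.45% of all genes). Neutrophil genes were at 85.6 to 2911 CPM in these BLZ945 libraries and 120 to 539 in CTL, and monocyte genes at 170.5 to 889 and 104 to 177. Choroid plexus genes were at 1412 to 37310 CPM in BLZ945 and 24.6 to 8954 in CTL. The part of these cell types was not tested.

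Ipsilaterally 4 members had an unadjusted p under 0.05 (5.65% of all genes), DESeq2 called none, and every BLZ945 library stood above every CTL library for 7 members (3.1% of all genes): Oasl2, Mx1, Ifi27, Ifi27l2a, Lgals3bp, Irf9 and Ifi47. Oasl2 was 46.5, 34.4 and 42.6 CPM in CTL and 66.8, 115 and 98.2 in BLZ945 (1.18 ± 0.43, adjusted p = 0.838). Ifi27l2a differed by 1.05 ± 0.44 (adjusted p = 0.838).

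The members made up far more of the sdCAM libraries than of tissue. In contralateral CTL libraries the ratio of mean CPM, sdCAM over tissue, had a median of 17.1 over the members and ran from 0.982 to 269, with 35 of 49 above 10, while over 16959 genes the median was 1.03 and 5.94% exceeded 10. For the other groups the member median was 12.7 in ipsilateral CTL, 24.5 in contralateral BLZ945 and 9.89 in ipsilateral BLZ945. No test was made, because the tables were normalised apart. Per kilobase of exon, the contralateral CTL tissue level was highest for Ifi27 (15 ± 1.88 CPM per kb), then Ifitm3 (12.6 ± 1.48), Lgals3bp (8.16 ± 1.43), Cmpk2 (6.20 ± 1.16) and Stat2 (5.04 ± 0.25), and these neighbours lay within about the sum of their SDs of each other except for Ifitm3 over Lgals3bp. In sdCAMs the same scale put Ifitm3 first (476 ± 77.2), followed by Bst2 (177 ± 50.8), Ifi27l2a (164 ± 78.4), Ifi27 (103 ± 22.1) and Lgals3bp (85.6 ± 17.8), where only the step from Ifitm3 to Bst2 exceeded the spread. Stat2 and Cmpk2, flat in tissue, were the members with the lowest sdCAM excess among the abundant ones.

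**Figure D5:**
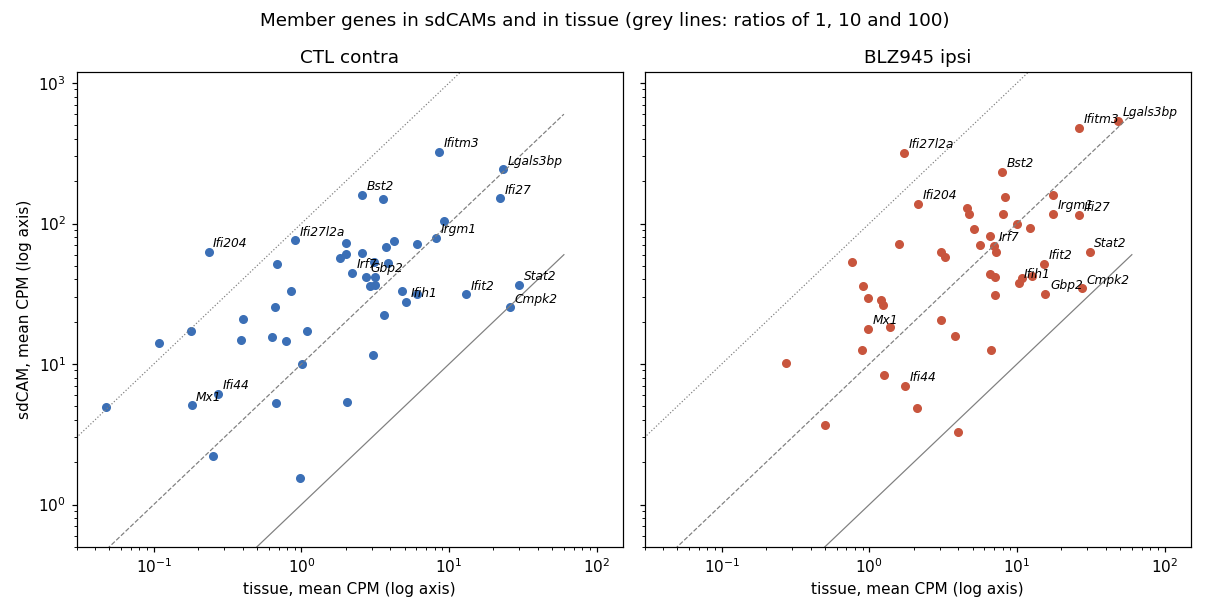
Mean CPM of each member in sdCAMs (vertical) against tissue (horizontal), both on log axes, in contralateral CTL (left, blue) and ipsilateral BLZ945 libraries (right, red). Grey lines mark ratios of 1 (solid), 10 (dashed) and 100 (dotted), and 35 of 49 members on the left and 24 on the right lie above the line for 10.

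The rest of the interferon pathway was read from a list of 94 genes, of which 88 were in the tables, 77 were tested in tissue and 82 in sdCAMs. In tissue 2 of the 77 rose in CTL, 5 in BLZ945 and 11 in the average (0.443%, 1.12% and 1.93% of all genes), and none fell. The ligands Ifnb1 and Ifng had 0 counts in every tissue library, and among 10 interferon genes none could be tested there. No receptor gene and none of the JAK kinases was called in tissue: Ifnar1 stood at 40.7 ± 2.58 and 42.04 ± 2.31 CPM in CTL and Ifngr2 at 46.6 ± 6.07 and 49.02 ± 6.84, and the average log2 fold changes were 0.06 ± 0.05 (adjusted p = 0.717) for Jak1, 0.05 ± 0.07 (adjusted p = 0.859) for Jak2 and 0.05 ± 0.11 (adjusted p = 0.915) for Tyk2. The averages were 0.21 ± 0.14 (adjusted p = 0.586) for Ifnar2 and 0.14 ± 0.12 (adjusted p = 0.704) for Ifngr1.

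Cxcl10, a chemokine that draws T cells, had the largest fold among these targets. Its mean rose from 0.152 ± 0.187 to 2.26 ± 0.626 CPM in CTL (3.77 ± 0.58, adjusted p = 0.00426, lost without B1 at adjusted p = 0.059) and from 0.511 ± 0.384 to 5.096 ± 1.499 in BLZ945 (3.31 ± 0.49, adjusted p = 0.00158), the CTL contralateral level being below the floor. Ifitm1, the neighbour of Ifitm3, rose in BLZ945 (2.69 ± 0.41, adjusted p = 0.00189) and in the average (1.85 ± 0.28, adjusted p = 0.000698), and Trim25, the ligase that activates RIG-I, in the average (0.69 ± 0.14, adjusted p = 0.00732). Stat3, better known for interleukin-6 signals and named here after its values were seen, rose in CTL (0.67 ± 0.09, adjusted p = 0.00118) and BLZ945 (0.81 ± 0.09, adjusted p = 8.28e-05). With the A3 hemispheres exchanged none of these was called.

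In sdCAMs 1 of the 82 pathway genes rose in CTL, 2 in BLZ945 and 9 in the average (0.426%, 1.2% and 3.91% of all genes), and none fell (2.36%, 4.41% and 11.1%). Ifnb1 reached at most 12 counts and Ifng 34 in a library. Jak2 rose in CTL (1.18 ± 0.28, adjusted p = 0.0363, adjusted p = 0.136 with the mouse as a block, and not called without A2, A3, A4, B1, C2 or C3). Ifngr1, a receptor chain for interferon-gamma, rose in BLZ945 (0.76 ± 0.21, adjusted p = 0.0425, adjusted p = 0.0761 with the block, called in the leave-one-out fits only without A3) and turned to -0.136 when scaled to the macrophage genes. In the average Dtx3l, a ubiquitin ligase partner of PARP9, rose (1.18 ± 0.30, adjusted p = 0.0165), as did Jak1 (0.64 ± 0.17, adjusted p = 0.0187) and Epsti1 (0.65 ± 0.20, adjusted p = 0.0385), the last pair turning to -0.0286 and -0.0234 under that scaling.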

How the data were processed

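RNA of sorted sdCAMs and of brain tissue slices from 8 mice was sequenced (Nextera XT libraries, single reads). Per the labels, the authors demultiplexed with bcl2fastq 2.20, aligned with STAR 2.7.11a and counted with featureCounts 2.0.8, and they also name DESeq2 1.46.0. The methods name mm10 or GRCm39, depending on the date of an experiment, without saying which holds for these libraries, the strand setting is not given in the sources used here, and all samples share 1 batch label. The deposited values are raw counts per gene, 33280 genes in each of 2 tables. Composition and depth act on them: CPM of a gene falls when other transcripts fill a library, which bears on the mixed sdCAM libraries.

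Counts were fitted per table with edgeR 4.0.16 in R 4.3.3 (TMM, quasi-likelihood test, 4 group means, genes whose counts summed to 8 or more in tissue and 7 or more in sdCAMs, Benjamini-Hochberg over all genes tested). Of the 16 sdCAM libraries 2 were left out. The members and gene lists were chosen with earlier results of these data known. Values are given for the 8 members with the smallest p in each stroke comparison, the 3 with the smallest p between treatments, and the most abundant member of each role group. Also given are the interferons, receptors and kinases named, Cxcl10 and the 3 other targets with the smallest p. Members outside these rules were named after their values were seen. Values of a further pathway gene are not reported here. The statistical code was tested on simulated counts.

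Hemispheres of 1 mouse are a pair. Their deviations from the group means correlated at 0.11 to 0.445 in tissue and 0.0386 to 0.146 in sdCAMs, and the mouse as a block is an alternative. Other alternatives were DESeq2 1.42.0, its size factors in edgeR, other count filters, no fold threshold, the A3 exchange, all 16 sdCAM libraries and each mouse left out. Added after seeing the data were sex, read from Xist and Ddx3y, as a covariate, and scaling of sdCAMs to 20 macrophage genes. No 2 libraries of a group were alike within sampling noise (chi-square per gene 4.69 to 32 in tissue and 36.9 to 148 in sdCAMs). Per-kilobase values use merged exon lengths of the reference annotation for all 49 members. Detection floors cover counting error only.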

Additional observations from a re-analysis of the deposited data

Results flagged for a closer look

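In 6 of 110 groups of 4 libraries tested, 1 library stood apart from the other libraries of its group by Dixon's criterion, when chance gives about 1 in 20. Contralateral CTL tissue of A3 had 3.991 CPM of Oasl2 (others 2.806 to 2.941) and 1.528 CPM of Usp18 (others 0.553 to 0.7153), and A3 is the mouse whose hemisphere labels conflict. Ipsilateral CTL tissue of A2 had 17.62 CPM of Irf9 (others 12.34 to 13.1), and that of A4 had 1.583 CPM of Mx1 (others 0.3298 to 0.5143). In BLZ945 tissue, contralateral Gbp3 was 3.445 CPM in D1 (others 2.509 to 2.56) and ipsilateral Lgals3bp was 79.15 CPM in C2 (others 37.57 to 38.64).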

How the results depend on the processing

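In tissue no member median changed sign in a stroke comparison. With the A3 hemispheres as in the column names, 0 members were called in CTL, 1 in BLZ945 and 0 in the average. With the mouse as a block, the replicate block of the pairing, and with DESeq2, 22 members were called in BLZ945. Over all genes these fits called 378 and 332 higher there, against 213 in the edgeR fit without a block. Sex as a covariate left 9 called in BLZ945 (195 over all genes). Leaving out each mouse in turn gave 0 to 4 calls in CTL, 4 to 12 in BLZ945 and 12 to 21 in the average, none lower. In sdCAMs the CTL call of Lgals3bp was lost (0 called) with all 16 libraries, DESeq2 size factors, no filter, the block, sex as a covariate or macrophage scaling. In BLZ945 2 were called higher with DESeq2, no filter or the block and 0 with all 16 libraries or macrophage scaling, and those lower were 0 with all 16 libraries or sex and 14 with macrophage scaling. Over all genes 451, 260 and 267 were called higher with DESeq2, no filter and the block. Those called lower were 424, 688 and 3644 with all 16 libraries, sex and macrophage scaling. In the average 0 were called higher or lower with all 16 libraries, 4 higher with no fold threshold, and 0 higher and 10 lower with macrophage scaling. Over all genes 84 were called higher and 1102 lower with all 16 libraries, 912 higher with no fold threshold, and 5265 lower with macrophage scaling. Leaving out mice gave 0 to 1 higher in CTL, 0 to 2 higher and 0 to 1 lower in BLZ945, and 1 to 4 higher in the average. The shares of all genes called higher in these fits were 0.0274% to 0.618%, 0.0438% to 1.33% and 2.27% to 4.06%. Between treatments in contralateral sdCAMs DESeq2 called 1 (0.212% of all genes). Under macrophage scaling the BLZ945 log2 fold change turned to -0.104 for Lgals3bp, -0.379 for Irf9, -0.333 for Bst2, -0.198 for Irgm2 and -0.136 for Ifngr1, and the average to -0.503 for Usp18, -0.0857 for Ifi204, -0.226 for Irf9, -0.147 for Gbp7, -0.21 for Irgm1, -0.0967 for Tap1, -0.077 for Ifngr1, -0.0286 for Jak1 and -0.0234 for Epsti1. In sdCAMs the average log2 fold change of Ifit3, 0.05, turned to -0.648 with macrophage scaling, -0.152 with all 16 libraries, -0.023 with DESeq2, -0.0231 with its size factors, -0.0118 with the block, and -0.0628, -0.0657, -0.091 and -0.105 without A2, A3, C3 and C4 (range to 0.34 without D1). Average Usp18 ranged from -0.0538 without A2 to 0.526 without D1. The causes were not tested. The block added 1, 9 and 2 tissue calls in CTL, BLZ945 and the average and lost 0, and in sdCAMs it lost Lgals3bp in CTL and added Ifi27l2a in BLZ945. Members under the floor of about 0.3 CPM in tissue, among them Oasl1, Mx1, Zbp1, Ifi44 and Ifi204 contralaterally in CTL, have folds of uncertain size.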
